A study of Homo sapiens with 6 samples.

Results

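Glycolysis converts glucose to pyruvate in the cytosol, and lactate dehydrogenase turns pyruvate into lactate, which leaves the cell with a proton through monocarboxylate transporters. Most steps are served by several isozymes encoded by separate genes, and the choice of isozyme sets how a step is regulated. Leukaemic cells in culture typically take up much glucose and release much of it as lactate. A list of 30 genes was chosen by name to cover this route: glucose import, the enzymes from hexokinase to lactate dehydrogenase, lactate transport, the PFKFB enzymes that set the level of the main activator of phosphofructokinase-1, the pyruvate dehydrogenase kinases, and a pair of side enzymes (PGM1 and BPGM). All 30 were found among the 58735 genes of the deposited table, and 29 passed the filter on low counts, as did 17947 genes in all. PGM1 was the member that did not pass.

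RNA was sequenced from cells labelled CCRF-SB, an established B lymphoblast line, in a study of the role of ANXA1 in growth and drug resistance. The siANXA1 group (3 libraries) received a lentivirus that silences ANXA1, and the siControl group (3 libraries) received the empty vector. Both were grown in RPMI-1640 with serum and carry the time label day 5, and infected cells were selected with puromycin. The control is therefore an empty vector and not an unrelated silencing sequence, all libraries come from a single line, and the labels do not state whether replicates were separate cultures, so that p-values measure the spread between these libraries only, which may be technical. ANXA1 itself read 1606, 1723 and 1712 CPM, counts scaled to library size, in siANXA1 replicates 1 to 3, against 3696, 3696 and 3756 CPM in siControl replicates 1 to 3, so that 45.2% remained. The difference ran the way the labels state, with an edgeR adjusted p of 0.0571.

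Libraries held between 21333951 and 44148505 estimated counts with a gene, the fewest in siANXA1 replicate 2. B cell markers were low: MS4A1 had 2 counts in siANXA1 replicate 3 and 0 in every other library, and PAX5 stayed at or below 0.230 CPM. The 12 B cell markers summed to between 37.4 and 101.07 CPM in siANXA1 and between 43.0 and 84.4 CPM in siControl, most of it CD24, and 2 of them had 0 counts everywhere. The summed level of 10 erythroid markers was between 3782 and 5595 CPM in siANXA1 and between 654 and 1376 CPM in siControl. HBE1 made up most of the siANXA1 sum, at 3286, 2140 and 2973 CPM in siANXA1 replicates 1 to 3, against 4.74, 637 and 9.82 CPM in siControl replicates 1 to 3. All 10 markers had a positive log2 fold change, and 0 passed in edgeR (3 at an unadjusted p under 0.05). The groups did not overlap for 4 of the 10, against 14.6% of all tested genes. Of 3 tested megakaryocyte markers 2 had a positive log2 fold change; their sum lay between 55.5 and 59.1 CPM in siANXA1 and between 34.6 and 42.2 CPM in siControl, but GP1BB made up most of it (48.4 ± 3.44 CPM in siANXA1 and 23.3 ± 9.82 CPM in siControl), and ITGA2B ran the other way (5.57 ± 1.86 CPM in siANXA1 and 12.4 ± 5.21 CPM in siControl). The summed T cell, monocyte and granulocyte, and fibroblast and epithelial markers overlapped between the groups. Of 7 transcripts read for RNA quality (5 mitochondrial, MALAT1 and NEAT1), 4 had a positive log2 fold change, but their sum did not overlap, at 41140, 25735 and 41382 CPM in siANXA1 replicates 1 to 3, against 50869, 55418 and 44539 CPM in siControl replicates 1 to 3. Among them MT-RNR2, a mitochondrial ribosomal RNA, stood at 8256 ± 1469 CPM in siANXA1 and 16934 ± 5041 CPM in siControl (adjusted p in edgeR = 0.605). Their part in the results below was not tested. In bulk RNA, more cells of a kind and more RNA per cell cannot be told apart. The first principal component of all tested genes other than the members carried 39.9% of the variance and did not follow the groups. It placed siANXA1 replicate 2 (44.8) with siControl replicates 1 and 2 (63.2 and 62.8), and siANXA1 replicates 1 and 3 (-56.5 and -59.3) with siControl replicate 3 (-55.1). This division recurs among the members.

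The members were abundant and, as a list, close to level between the groups. Their share of all counts assigned to genes was 1.80%, 1.92% and 1.80% in siANXA1 replicates 1 to 3, against 1.94%, 1.82% and 1.74% in siControl replicates 1 to 3. The groups overlapped in that share. In TPM, counts per transcript length scaled to the library, GAPDH was the most abundant member with a mean of 4666 TPM over the 6 libraries, followed by ENO1 (3115 TPM), LDHB (1748 TPM), ALDOA (1600 TPM) and LDHA (1223 TPM). The regulators PFKFB2 and PFKFB3 averaged 14.6 and 13.3 TPM, the lactate exporter SLC16A3 3.15 TPM and PDK3 0.526 TPM. PGM1, which interconverts glucose-1-phosphate and glucose-6-phosphate on the way to and from glycogen, had 0, 0 and 8 counts in siANXA1 replicates 1 to 3, against 4, 0 and 2 counts in siControl replicates 1 to 3. Its paralogue PGM2, from the list of side routes, averaged 78.2 TPM.

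0 of the 29 tested members passed an adjusted p of 0.05 in edgeR's quasi-likelihood test, where 0.0111% of all tested genes did. At an unadjusted p under 0.05, edgeR had 3 members (10.3%), SLC2A3, SLC16A3 and PDK3, all lower in siANXA1, against 7.93% of all tested genes. DESeq2 also called 0 members, with 0.834% of genes called, and so did limma-voom, with 0.0167%. The log2 fold change of siANXA1 over siControl was positive for 18 members and negative for 11, with a median of 0.03 against 0.01 over all tested genes. It lay within 0.5 on the log2 scale for 24 members (82.8%), against 68.7% of all tested genes. These shares were not matched for abundance. Of the members outside 0.5, PFKFB2, PFKFB3, SLC16A3 and PDK3 were the scarcest tested members per length, and SLC2A3 was not scarce. The smallest adjusted p of any member was 0.605, for SLC16A3, in edgeR. The libraries of the groups did not overlap for 5 members (17.2%), namely SLC16A3, PDK3, ENO1 and PGK1, lower in siANXA1, and BPGM, higher in siANXA1. Over all tested genes that share was 14.6%, close to that of the members.

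**Figure D1:**
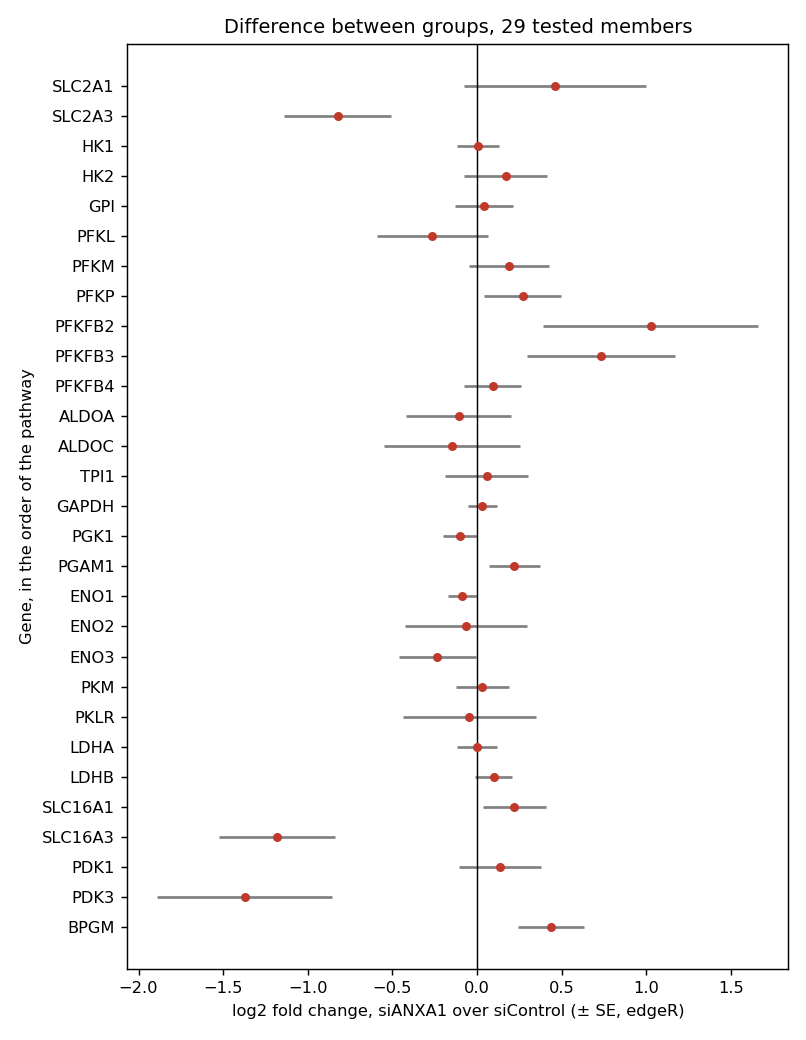
Log2 fold change of siANXA1 over siControl for the 29 tested members, from glucose import at the top to lactate export, the pyruvate dehydrogenase kinases and BPGM at the bottom, with bars of 1 standard error from edgeR. Most points lie near 0, with SLC16A3 at -1.18 and PDK3 at -1.37 furthest to the left and PFKFB2 at 1.03 furthest to the right, and none passed the test.

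Glucose enters through SLC2A1 (GLUT1), the widely expressed transporter, and SLC2A3 (GLUT3), a high-affinity transporter best known from neurons and white blood cells. SLC2A1 (ENSG00000117394, chromosome 1 from 42925375 to 42959176, minus strand, GRCh38) read 331, 104 and 327 CPM in siANXA1 replicates 1 to 3, against 129, 125 and 299.8 CPM in siControl replicates 1 to 3. Each group held both high and low libraries, and the high ones were siANXA1 replicates 1 and 3 and siControl replicate 3. The group means were 254 ± 130 CPM in siANXA1 and 185 ± 99.8 CPM in siControl (SD, n = 3 each), a log2 fold change of 0.46 ± 0.538 (SE; adjusted p in edgeR = 0.809). SLC2A3 (ENSG00000059804, chromosome 12 from 7919230 to 7936275, minus strand) read 125, 237 and 129 CPM in siANXA1 replicates 1 to 3, against 322, 335 and 210.5 CPM in siControl replicates 1 to 3. Its libraries ran the opposite way, with siANXA1 replicate 2 as the highest of its group and siControl replicate 3 as the lowest of its own. The log2 fold change of SLC2A3 was -0.82 ± 0.317 (SE; adjusted p in edgeR = 0.627).

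The balance of both transporters therefore turned over between libraries of the same group. Of the TPM of SLC2A1 and SLC2A3 together, SLC2A1 held 74.8%, 33.9% and 73.7% in siANXA1 replicates 1 to 3, against 31.1%, 29.7% and 61.1% in siControl replicates 1 to 3. SLC2A1 was the major form in siANXA1 replicates 1 and 3 and siControl replicate 3, and SLC2A3 in the other 3 libraries. Within each of these sets of libraries, the share of SLC2A1 was higher in siANXA1 than in siControl. The sets were read from this share, and each holds a single library of 1 group, so this is a description and no test. The mean share of SLC2A1 was 60.8% ± 23.3 in siANXA1 and 40.7% ± 17.7 in siControl (SD, n = 3 each), a difference smaller than the spread in siANXA1.

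**Figure D2:**
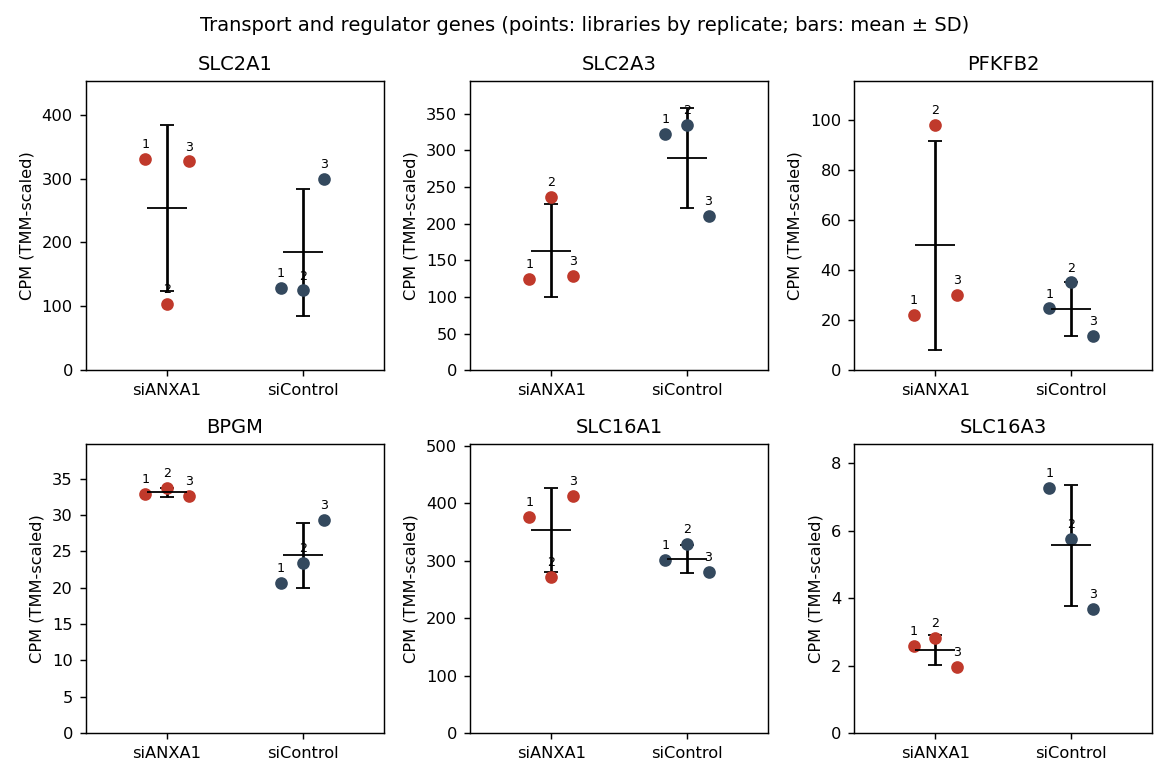
CPM, scaled by TMM, of the glucose transporters, PFKFB2, BPGM and the lactate transporters in siANXA1 and siControl, with a point per library numbered by replicate and bars for mean ± SD (n = 3). BPGM and SLC16A3 have groups that do not overlap, whereas SLC2A1 spans 104 to 331 CPM in siANXA1 and 125 to 299.8 CPM in siControl.

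Hexokinases phosphorylate glucose and so trap it in the cell. HK1, the isozyme of most tissues, read 1237, 1064 and 1316 CPM in siANXA1 replicates 1 to 3, against 1173, 1148 and 1277 CPM in siControl replicates 1 to 3. HK2, the inducible isozyme of muscle and many tumours, read 221, 167 and 229 CPM in siANXA1 replicates 1 to 3, against 149, 154 and 246 CPM in siControl replicates 1 to 3. HK1 held 90.8% ± 0.395 of the TPM of both in siANXA1 and 91.8% ± 1.61 in siControl (SD, n = 3 each), so that the step was nearly all HK1 in both groups. HK3, a further isozyme, had 2 counts in siANXA1 replicate 2 and siControl replicate 2 and 0 elsewhere. GPI, which converts glucose-6-phosphate to fructose-6-phosphate, averaged 472 ± 83.4 CPM in siANXA1 and 459 ± 53.3 CPM in siControl.

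Phosphofructokinase-1 is the committed step of glycolysis and a tetramer of subunits named for liver (PFKL), muscle (PFKM) and platelet (PFKP). PFKP was the most abundant per length in every library, with 70.6%, 48.0% and 74.6% of the TPM of the 3 genes in siANXA1 replicates 1 to 3, against 55.0%, 52.0% and 62.4% in siControl replicates 1 to 3. PFKL held 8.14%, 18.9% and 8.44% in siANXA1 replicates 1 to 3, against 18.8% ± 1.05 in siControl (SD, n = 3). The share of PFKL was low in siANXA1 replicates 1 and 3 alone, while siANXA1 replicate 2 lay among the siControl libraries. In CPM, PFKL stood at 57.2 ± 27.2 in siANXA1 and 68.7 ± 1.74 in siControl (edgeR adjusted p = 0.818).

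The PFKFB enzymes make and break down fructose-2,6-bisphosphate, the strongest activator of phosphofructokinase-1. PFKFB2, the form best known from heart, read 21.9, 97.8 and 29.9 CPM in siANXA1 replicates 1 to 3, against 24.7, 35.02 and 13.7 CPM in siControl replicates 1 to 3. The high mean of siANXA1 came largely from replicate 2. The log2 fold change of PFKFB2 was 1.03 ± 0.637 (SE; adjusted p in edgeR = 0.686) and 0.09 without siANXA1 replicate 2. Leaving it out removes the only siANXA1 library that the main component placed with siControl replicates 1 and 2. PFKFB2 was higher in siANXA1 replicate 2 than in those siControl libraries. It was also higher in siANXA1 replicates 1 and 3 than in siControl replicate 3, which the component placed with them. Each of these comparisons rests on a single library of 1 group and is no test. Against all siControl libraries, siANXA1 replicates 1 and 3 lay within the siControl range of PFKFB2. PFKFB3, an inducible form with a high kinase activity, read 21.4, 19.4 and 55.6 CPM in siANXA1 replicates 1 to 3, against 18.3, 17.5 and 22.2 CPM in siControl replicates 1 to 3, again with 1 library apart, siANXA1 replicate 3. Its log2 fold change was 0.73 with all libraries and 0.08 without that library. PFKFB4 varied least of the 3, between 44.5 and 53.9 CPM in siANXA1 and between 40.5 and 49.9 CPM in siControl, and held 46.4% ± 6.18 of their TPM in siANXA1 and 56.0% ± 4.83 in siControl.

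Aldolase splits fructose-1,6-bisphosphate into triose phosphates. ALDOA read 1066, 1779 and 947 CPM in siANXA1 replicates 1 to 3, against 1691, 1446 and 951 CPM in siControl replicates 1 to 3. ALDOC, the brain isozyme, read 109.9, 225 and 114 CPM in siANXA1 replicates 1 to 3, against 205, 196 and 95.1 CPM in siControl replicates 1 to 3. Both were highest in siANXA1 replicate 2 and siControl replicates 1 and 2, and their ratio barely moved: ALDOA held between 90.2% and 92.2% of their TPM in siANXA1 and between 89.8% and 92.2% in siControl. TPI1, which interconverts the triose phosphates, ran the other way, at 602, 554 and 705 CPM in siANXA1 replicates 1 to 3, against 493, 471 and 824 CPM in siControl replicates 1 to 3.

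GAPDH, ENO1 and PGK1, enzymes of the middle of the pathway, varied least over the 6 libraries of all tested members. GAPDH, which oxidises glyceraldehyde-3-phosphate, read 4341, 4339 and 4296 CPM in siANXA1 replicates 1 to 3, against 4366, 4205 and 4123 CPM in siControl replicates 1 to 3, so that its highest library stood 1.06-fold above its lowest. PGK1, which makes the first ATP of the pathway, read 865, 919 and 855 CPM in siANXA1 replicates 1 to 3, against 954, 951 and 923 CPM in siControl replicates 1 to 3. ENO1, the common enolase, read 3970, 3991 and 3945 CPM in siANXA1 replicates 1 to 3, against 4297, 4193 and 4166 CPM in siControl replicates 1 to 3. Every siANXA1 library was below every siControl library for PGK1 and ENO1, but the log2 fold changes were small, at -0.10 ± 0.1005 and -0.09 ± 0.0862 (SE; adjusted p in edgeR = 0.791 and 0.786). PGAM1, the phosphoglycerate mutase, averaged 512 ± 17.9 CPM in siANXA1 and 440 ± 73.6 CPM in siControl, and siControl replicate 3, at 524 CPM, lay within the siANXA1 range. GAPDH, ENO1, PGAM1, TPI1 and LDHA have near-identical pseudogene or retrogene copies elsewhere in the genome, with which an estimate can exchange reads.

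ENO2, the neuronal enolase, read 26.8, 48.5 and 25.5 CPM in siANXA1 replicates 1 to 3, against 43.3, 39.2 and 22.7 CPM in siControl replicates 1 to 3, with the same 3 libraries high as for ALDOC. ENO3, the muscle enolase, lay between 7.02 and 10.1 CPM in siANXA1 and between 9.88 and 10.8 CPM in siControl. ENO1 held between 98.1% and 98.8% of enolase TPM in siANXA1 and between 98.3% and 98.7% in siControl.

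**Figure D3:**
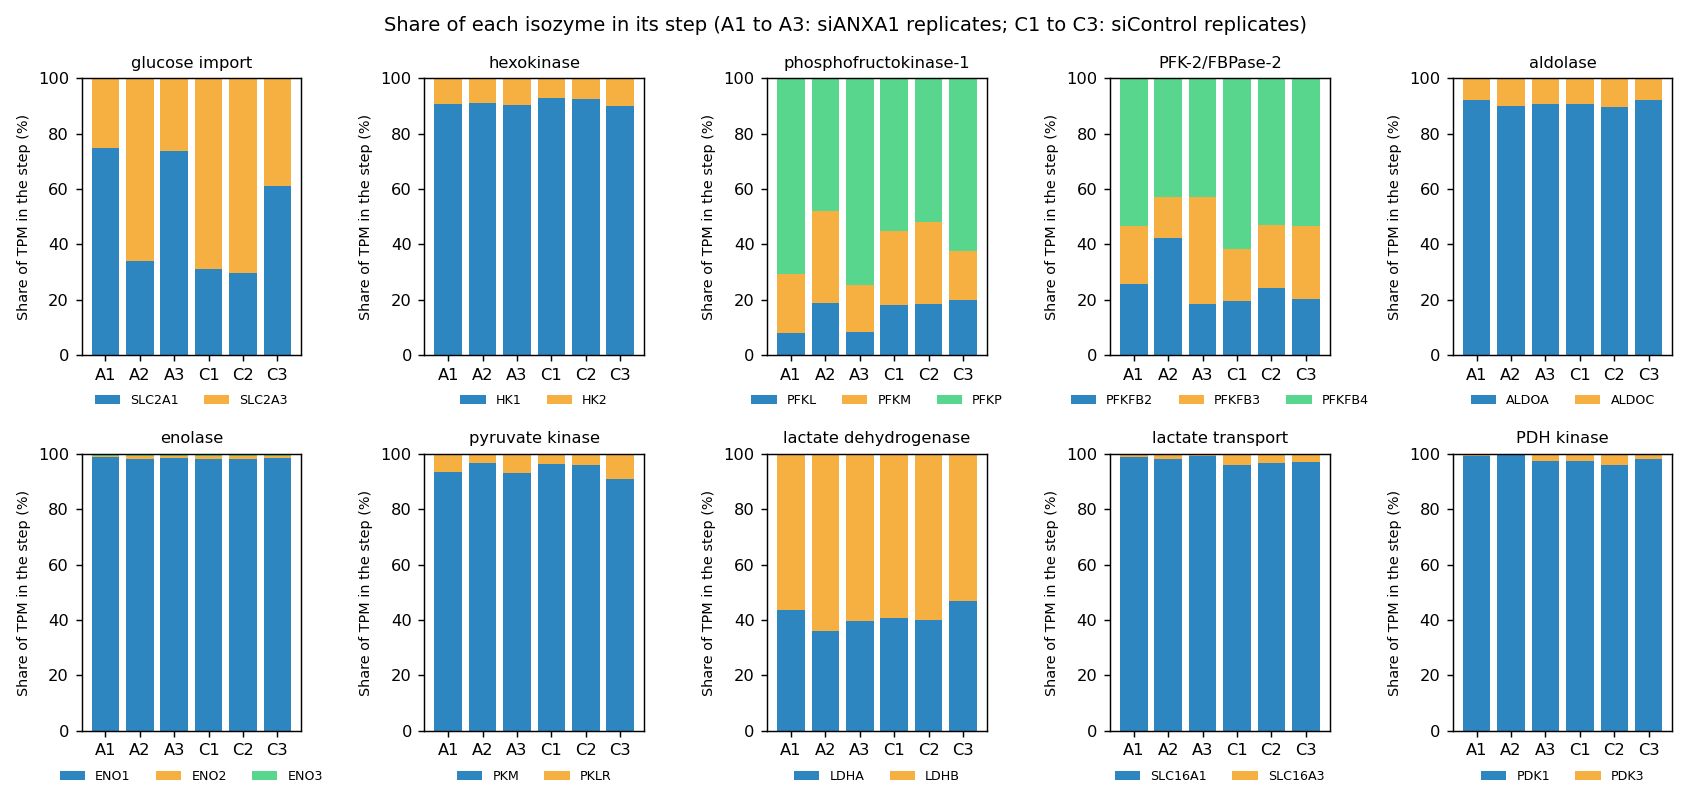
Share of each gene in the TPM of its step, in percent, for the 10 steps with more than 1 member, with a bar per library (A1 to A3 are siANXA1 replicates, C1 to C3 siControl replicates). The glucose transporters change places between libraries, SLC2A1 holding from 33.9% to 74.8% in siANXA1 and from 29.7% to 61.1% in siControl, while hexokinase, aldolase and enolase keep their makeup.

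Pyruvate kinase makes the last ATP of the pathway. PKM read 621, 792 and 612 CPM in siANXA1 replicates 1 to 3, against 754, 616 and 611 CPM in siControl replicates 1 to 3, and the liver and red cell gene PKLR read 66.3, 40.4 and 64.1 CPM in siANXA1 replicates 1 to 3, against 43.3, 38.8 and 94.2 CPM in siControl replicates 1 to 3. Neither differed between the groups beyond the spread of the libraries, and PKM held 94.5% ± 1.91 of their TPM in siANXA1 and 94.5% ± 2.96 in siControl. PKM transcripts carry one of a pair of mutually exclusive exons: exon 9 gives the M1 form of adult muscle and brain, and exon 10 the M2 form of proliferating cells. Both exons are 167 bases long and are shown here in transcript sense from GENCODE release 29, since they are what tells the forms apart, with the 62 bases that differ between them in capitals. Exon 10 lies at chr15:72202454-72202620 and exon 9 at chr15:72203022-72203188, both on the minus strand (GRCh38).
PKM exon 10 (M2): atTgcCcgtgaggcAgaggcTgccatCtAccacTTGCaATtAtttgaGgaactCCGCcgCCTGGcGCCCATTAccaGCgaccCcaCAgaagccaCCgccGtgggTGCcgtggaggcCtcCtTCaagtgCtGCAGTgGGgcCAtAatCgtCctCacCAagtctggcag
PKM exon 9 (M1): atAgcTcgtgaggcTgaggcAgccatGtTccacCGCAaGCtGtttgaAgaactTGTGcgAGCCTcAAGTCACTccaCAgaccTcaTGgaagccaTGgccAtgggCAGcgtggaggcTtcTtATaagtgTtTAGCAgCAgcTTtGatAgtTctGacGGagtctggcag
The 4 annotated transcripts with exon 10 held 69.1%, 48.1% and 76.0% of the estimated TPM of both classes in siANXA1 replicates 1 to 3, against 64.1%, 72.9% and 72.6% in siControl replicates 1 to 3. The exon 10 class was the larger in every library but siANXA1 replicate 2, and the groups overlapped. The mean share was 64.4% ± 14.5 in siANXA1 and 69.8% ± 4.99 in siControl (SD, n = 3 each).

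Lactate dehydrogenase is a tetramer of LDHA, favoured in tissues that make lactate, and LDHB, favoured in tissues that use it. LDHA read 1350, 1172 and 1268 CPM in siANXA1 replicates 1 to 3, against 1324, 1144 and 1320.3 CPM in siControl replicates 1 to 3. LDHB read 1310, 1391 and 1324 CPM in siANXA1 replicates 1 to 3, against 1356, 1241 and 1166 CPM in siControl replicates 1 to 3. The log2 fold changes were 0.00 ± 0.118 for LDHA and 0.10 ± 0.108 for LDHB (SE; adjusted p in edgeR = 0.999 and 0.802). LDHB was the more abundant per length in all 6 libraries, with 56.3%, 63.9% and 60.2% of the TPM of both in siANXA1 replicates 1 to 3, against 59.1%, 60.0% and 53.0% in siControl replicates 1 to 3. The testis isozyme LDHC had 3 counts in siControl replicate 1 and 0 elsewhere.

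Lactate leaves through SLC16A1 (MCT1), which carries it in either direction, and SLC16A3 (MCT4), an exporter of highly glycolytic cells. SLC16A3 (ENSG00000141526, chromosome 17 from 82228397 to 82261129, plus strand, GRCh38) read 2.58, 2.83 and 1.97 CPM in siANXA1 replicates 1 to 3, against 7.28, 5.75 and 3.68 CPM in siControl replicates 1 to 3. These rest on 112, 62 and 72 estimated counts in siANXA1 replicates 1 to 3, and on 304, 232 and 123 in siControl replicates 1 to 3. Every siANXA1 library was lower than every siControl library, with means of 2.46 ± 0.445 CPM in siANXA1 and 5.57 ± 1.80 CPM in siControl (SD, n = 3 each). This is a log2 fold change of -1.18 with a standard error of 0.343, at an adjusted p of 0.605 in edgeR. With each library left out in turn it stayed between -1.41 and -0.95, and DESeq2, limma-voom and every other alternative fit left the adjusted p above 0.05. SLC16A3 was the scarcer transporter throughout, with 1.15% ± 0.681 of the TPM of both in siANXA1 and 3.32% ± 0.616 in siControl.

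SLC16A1 (ENSG00000155380, chromosome 1 from 112911847 to 112957013, minus strand) read 376, 272 and 413 CPM in siANXA1 replicates 1 to 3, against 302, 329 and 280.4 CPM in siControl replicates 1 to 3. Its summed level overlapped between the groups (log2 fold change 0.22 ± 0.184, SE; adjusted p in edgeR = 0.755), but the counts were split differently between its transcripts, which are named here because of their values. ENST00000369626 was estimated at 153, 53.3 and 189 TPM in siANXA1 replicates 1 to 3, against 15.9, 14.3 and 16.8 TPM in siControl replicates 1 to 3. ENST00000538576 was estimated at 11.7, 64.4 and 0.179 TPM in siANXA1 replicates 1 to 3, against 105, 118.3 and 98.3 TPM in siControl replicates 1 to 3. The groups did not overlap for either, and ENST00000369626 held 90.8%, 42.0% and 98.2% of the gene's TPM in siANXA1 replicates 1 to 3, against 11.9%, 10.1% and 14.3% in siControl replicates 1 to 3. These transcripts encode the same coding sequence. They differ in the noncoding first exon, which runs from 112956035 to 112956353 (319 bases) in ENST00000369626 and from 112955276 to 112956063 (788 bases) in ENST00000538576, on chromosome 1. Of the 96 member transcripts with a mean of 5 TPM or more, 15 (15.6%) had groups that did not overlap, against 13.5% of all such transcripts, a share close to that of the members.

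**Figure D4:**
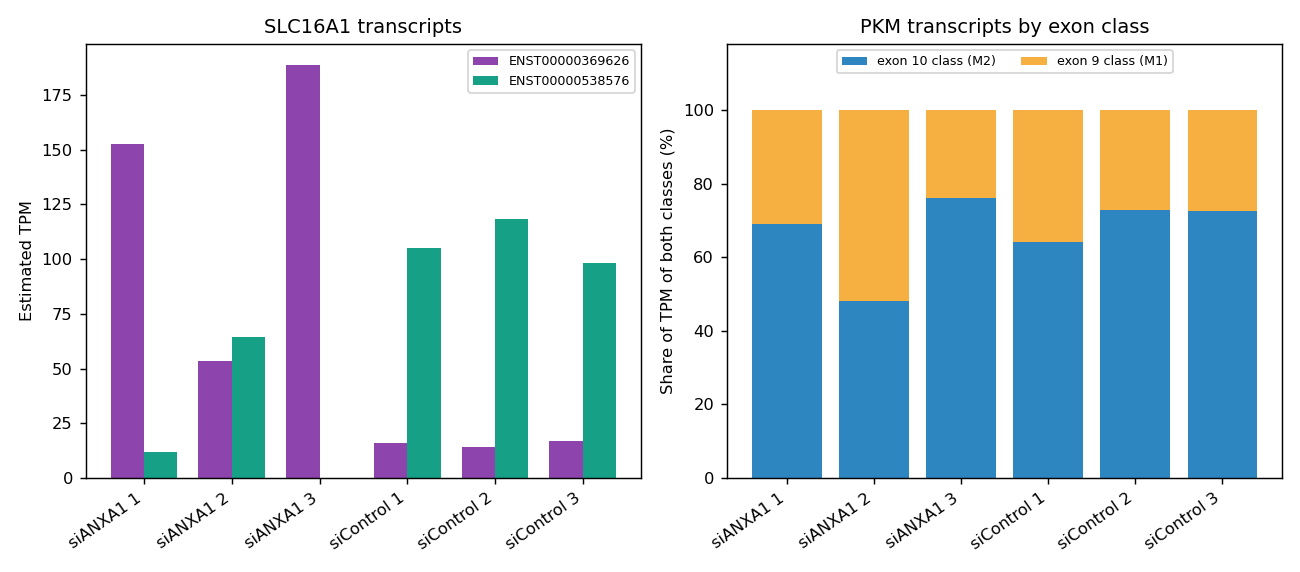
Left, estimated TPM of both main SLC16A1 transcripts in each library; right, share of PKM transcripts with exon 10 or exon 9 in the TPM of both classes, in percent, with libraries in the order siANXA1 1 to 3 and siControl 1 to 3. ENST00000369626 lies between 53.3 and 189 TPM in siANXA1 and between 14.3 and 16.8 TPM in siControl, and the PKM exon 10 share is lowest, at 48.1%, in siANXA1 replicate 2.

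Estimates of single transcripts moved between libraries of a group for other members too, and this bears on the levels per length above. The GAPDH transcript ENST00000474249, annotated as a retained intron, held 65.2% of GAPDH TPM in siControl replicate 1 and between 32.0% and 39.3% in the other 5 libraries. The HK1 transcript ENST00000298649 held 81.9%, 27.0% and 35.2% of HK1 TPM in siANXA1 replicates 1 to 3, against 36.8%, 36.6% and 70.9% in siControl replicates 1 to 3. For ENO1, the protein-coding transcript ENST00000646539 held 0.195% of its TPM in siANXA1 replicate 1 and between 20.3% and 38.1% in the other 5 libraries, and the retained intron transcript ENST00000645609 held 20.9% in siANXA1 replicate 1 and between 0.697% and 7.03% in the other 5. A second retained intron transcript, ENST00000464920, was steadier, at 57.6% to 67.5% of ENO1 TPM in all 6. Over the same libraries the CPM of GAPDH and ENO1, from counts summed per gene, differed by at most 1.06-fold and 1.09-fold, and those of HK1 by 1.24-fold.

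Pyruvate dehydrogenase kinases inhibit pyruvate dehydrogenase and so hold pyruvate back from oxidation in the mitochondria. PDK1, a hypoxia-induced form, read 88.1, 133 and 94.3 CPM in siANXA1 replicates 1 to 3, against 105, 109.6 and 72.7 CPM in siControl replicates 1 to 3, and the groups overlapped. PDK3 had 20, 5 and 17 counts in siANXA1 replicates 1 to 3, against 50, 54 and 17 counts in siControl replicates 1 to 3, which came to 0.384 ± 0.135 CPM in siANXA1 and 1.02 ± 0.444 CPM in siControl. With so few counts, the log2 fold change of PDK3 of -1.37 ± 0.516 (SE; adjusted p in edgeR = 0.627) is imprecise.

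BPGM makes 2,3-bisphosphoglycerate, which lowers the oxygen affinity of haemoglobin and is abundant in red cells. BPGM (ENSG00000172331, chromosome 7 from 134646808 to 134679813, plus strand) read 32.9, 33.7 and 32.6 CPM in siANXA1 replicates 1 to 3, against 20.6, 23.4 and 29.4 CPM in siControl replicates 1 to 3. The siANXA1 libraries lay close together and above all siControl libraries, with means of 33.1 ± 0.569 CPM in siANXA1 and 24.5 ± 4.47 CPM in siControl (SD, n = 3 each). The log2 fold change was 0.44 ± 0.195 (SE; adjusted p in edgeR = 0.637). The summed level of the erythroid markers given above, most of it HBE1 in siANXA1, also had groups that did not overlap, with siANXA1 the higher. Its part in the BPGM level was not tested. PKLR, a member with a red cell form, averaged 56.9 ± 14.4 CPM in siANXA1 and 58.8 ± 30.7 CPM in siControl.

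**Figure D5:**
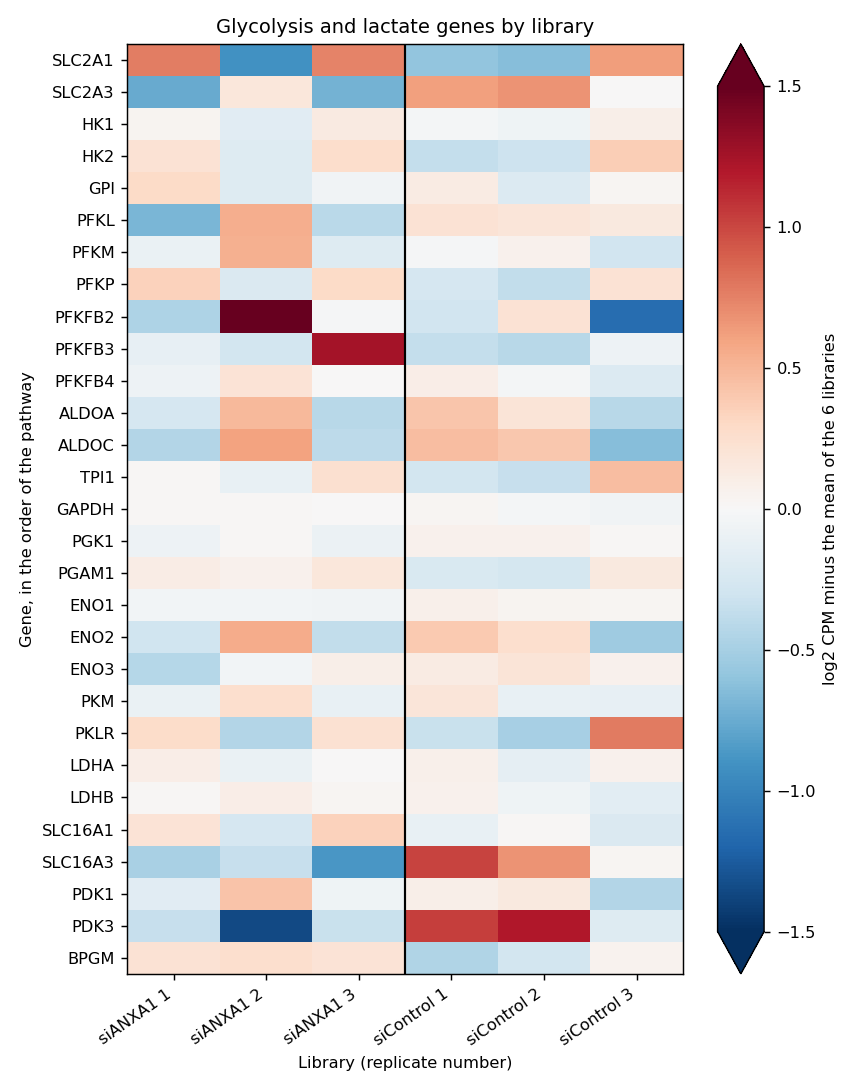
Log2 CPM of each of the 29 tested members minus its own mean over the 6 libraries, from glucose import at the top to BPGM at the bottom, siANXA1 replicates left of the line and siControl replicates right of it (red above the mean, blue below). Rows such as SLC2A1, ALDOC and ENO2 have the colour of siANXA1 replicate 2 in siControl replicates 1 and 2, and the opposite colour in the other 3 libraries, while GAPDH, PGK1 and ENO1 are pale throughout.

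The division of libraries seen for the glucose transporters held for 15 of the 29 members (51.7%), for which siANXA1 replicate 2 and siControl replicates 1 and 2 all lay above or all below the other 3 libraries. The division was taken from the main component of the other genes, and 39.8% of all tested genes followed it. 7 members were higher in those libraries: SLC2A3, PFKL, PFKM, ALDOA, ALDOC, ENO2 and PDK1. 8 were lower there: SLC2A1, HK1, HK2, PFKP, PFKFB3, TPI1, PGAM1 and PKLR. The summed level of 29 genes of the amino acid response divided the libraries in the same way, at 3532, 7655 and 3699 CPM in siANXA1 replicates 1 to 3, against 11012, 10749 and 4112 CPM in siControl replicates 1 to 3. So did that of 20 genes of the HIF pathway, which senses oxygen and induces much of glycolysis, at 1128, 1453 and 1098 CPM in siANXA1 replicates 1 to 3, against 1475, 1586 and 1025 CPM in siControl replicates 1 to 3. Most of the difference in the HIF sum came from VEGFA and P4HA1. VEGFA read 133, 249 and 116 CPM in siANXA1 replicates 1 to 3, against 346, 324 and 106 CPM in siControl replicates 1 to 3. The part of either list in the member levels was not tested. With the side of the component as a covariate in edgeR, 0 members passed, where 0.0279% of tested genes did, and 7 members (24.1%) had an unadjusted p under 0.05, against 13.8% of tested genes. SLC2A1 moved to a log2 fold change of -0.08 ± 0.116 (SE; adjusted p in edgeR = 0.792). SLC2A3 stayed at -0.60 ± 0.0857 (SE; adjusted p in edgeR = 0.221) in that fit, and SLC16A3 at -0.95 ± 0.253 (SE; adjusted p in edgeR = 0.276). PFKFB2 stood at 1.32 ± 0.268 (SE; adjusted p in edgeR = 0.242) in the same fit.

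Promoters were read for all members, and those of ALDOC and ENO2, which moved together across libraries, and of SLC2A1, which moved against them, are shown as examples of windows with and without the motif searched. RefSeq promoter windows (GRCh38.p14, 300 bases around an annotated start, most of them upstream) matched 27 of the 30 members, without SLC2A3, SLC16A1 and PFKFB2. The letters ACGTG, the core of the hypoxia response element bound by HIF, were searched on both strands and stand in capitals where found. Matches of ACGTG include those within CACGTG, the E-box bound by MYC and USF factors. The ALDOC window is chr17:28576846-28577145 (minus strand), the ENO2 window chr12:6914330-6914629 (plus strand) and the SLC2A1 window chr1:42958819-42959118 (minus strand).
ALDOC: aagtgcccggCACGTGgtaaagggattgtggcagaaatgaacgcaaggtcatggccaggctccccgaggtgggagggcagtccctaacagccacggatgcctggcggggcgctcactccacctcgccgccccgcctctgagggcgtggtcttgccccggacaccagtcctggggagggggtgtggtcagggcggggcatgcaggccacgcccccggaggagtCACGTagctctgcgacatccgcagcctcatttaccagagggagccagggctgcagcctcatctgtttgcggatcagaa
ENO2: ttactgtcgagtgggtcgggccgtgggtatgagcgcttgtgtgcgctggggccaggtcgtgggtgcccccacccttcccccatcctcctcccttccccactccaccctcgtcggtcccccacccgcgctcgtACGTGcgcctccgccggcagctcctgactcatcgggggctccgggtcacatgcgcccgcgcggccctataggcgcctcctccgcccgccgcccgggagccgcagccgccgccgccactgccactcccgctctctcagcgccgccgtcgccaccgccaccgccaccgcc
SLC2A1: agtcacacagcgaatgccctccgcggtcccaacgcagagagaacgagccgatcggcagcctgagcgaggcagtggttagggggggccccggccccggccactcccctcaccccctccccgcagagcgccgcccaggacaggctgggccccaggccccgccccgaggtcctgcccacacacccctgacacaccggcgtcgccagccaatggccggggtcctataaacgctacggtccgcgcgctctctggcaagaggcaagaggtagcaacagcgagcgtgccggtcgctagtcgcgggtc
The ALDOC window held 3 matches in 2 places, one of which is a CACGTG read on both strands, the ENO2 window held 1, and the SLC2A1 window none. Matches were found on both sides of the division of the libraries: 5 of the 6 genes with a window that were higher in siANXA1 replicate 2 and siControl replicates 1 and 2 held it in at least 1 window, and so did 5 of the 8 that were lower there, HK2 with 2 and 4 matches in its windows, while PFKL, higher there, had 0. So did 8 of the 13 members with a window in neither order, and 18 of all 27. The share per gene was not computed over all genes. Of the 57 windows of members, several genes having more than 1 start, 22 (38.6%) held ACGTG, against 21.4% of all 35116 windows, and 7 (12.3%) held CACGTG, against 7.26% of all. Windows of a gene can overlap and share a match, as a pair of PFKM windows did, and each was counted. A match is a description of these letters and shows no binding.

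Routes that branch from glycolysis were described from lists of related genes. Of the pentose phosphate pathway, which draws glucose-6-phosphate off for NADPH and ribose, 0 of 7 tested genes passed in edgeR (1 at an unadjusted p under 0.05), and 6 of 7 had a negative log2 fold change (median -0.14 against 0.01 over all tested genes). PGD, which makes NADPH and ribulose phosphate, stood at 595 ± 10.1 CPM in siANXA1 and 689 ± 75.5 CPM in siControl, and TKT, transketolase, at 398 ± 20.1 CPM in siANXA1 and 434 ± 16.5 CPM in siControl. Of 14 tested genes of mitochondrial pyruvate use, 0 passed in edgeR (1 at an unadjusted p under 0.05) and 7 were positive (median -0.02), with DLAT, a pyruvate dehydrogenase subunit, at 303 ± 34.6 CPM in siANXA1 and 275 ± 81.2 CPM in siControl and PDHA1, another, at 224 ± 30.4 CPM in siANXA1 and 219 ± 52.7 CPM in siControl. PCK2, the mitochondrial enzyme that makes phosphoenolpyruvate, read 11.1, 22.5 and 20.7 CPM in siANXA1 replicates 1 to 3, against 138, 121 and 25.5 CPM in siControl replicates 1 to 3. DESeq2 called it, at -2.40 on the log2 scale with an adjusted p of 0.0144, whereas its adjusted p in edgeR was 0.605. It was named after its values were seen.

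Of the HIF pathway, 0 of 20 tested genes passed in edgeR (1 at an unadjusted p under 0.05) and 15 were negative (median -0.15). VEGFA, the vascular growth factor, stood at 166 ± 72.1 CPM in siANXA1 and 258 ± 133 CPM in siControl, and P4HA1, a collagen prolyl hydroxylase subunit, at 161 ± 63.0 CPM in siANXA1 and 211 ± 91.3 CPM in siControl. Of 14 tested genes of glycogen and hexose side routes, 0 passed in edgeR (0 at an unadjusted p under 0.05) and 6 were positive (median -0.06), with GFPT1, the first enzyme of hexosamine synthesis, at 165 ± 119 CPM in siANXA1 and 359.7 ± 278 CPM in siControl, and PGM2 at 137 ± 4.62 CPM in siANXA1 and 129.8 ± 15.8 CPM in siControl. Of other isozymes and partners of the same steps, 11 of 26 were tested, 0 passed in edgeR (0 at an unadjusted p under 0.05) and 6 were positive (median 0.33). BSG, the chaperone of SLC16A1 and SLC16A3, stood at 222 ± 108 CPM in siANXA1 and 318 ± 74.7 CPM in siControl, and PGAM5, a mitochondrial phosphatase named for its likeness to the mutases, at 53.7 ± 40.4 CPM in siANXA1 and 19.4 ± 17.4 CPM in siControl. Of 28 tested genes of the amino acid response, 0 passed in edgeR (5 at an unadjusted p under 0.05) and 26 were negative (median -0.79), with AARS, the alanyl-tRNA synthetase, at 567 ± 199 CPM in siANXA1 and 928 ± 372 CPM in siControl and DDIT4, an inhibitor of mTOR signalling, at 551 ± 766 CPM in siANXA1 and 1547 ± 1177 CPM in siControl. Limma-voom called 0 genes of these 6 lists, and DESeq2 called PCK2 and, of the amino acid response, VLDLR, a lipoprotein receptor with 0 counts in every siANXA1 library and at most 1.05 CPM in siControl.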

How the data were processed

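RNA-seq of 6 libraries (3 siANXA1, 3 siControl) was analysed. The authors deposited estimated counts per transcript, whole numbers that are not normalized, in a table with annotation and one without; all 1335690 values agreed. That they are estimated counts was assumed, since whole numbers alone cannot show it. No aligner, counter or strand setting is given in the sources used here. The build mm10, per the submitters' processing notes, is a mouse build, but all 206601 rows with a gene were found in GENCODE 29 (human, GRCh38). Another 16014 rows, named TCONS_, had no gene, held between 16.9% and 17.7% of the counts and were left out.

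Counts were summed per gene (58735 genes) and tested with edgeR 4.0.16 (R 4.3.3) after filterByExpr and TMM scaling (robust glmQLFit, glmQLFTest), group as the only term, two-sided, with Benjamini-Hochberg adjustment over 17947 genes and a threshold of 0.05; the procedure was tested on simulated data. The common biological coefficient of variation was 0.423. CPM are TMM-scaled; TPM use the deposited transcript lengths, a column of another kind in bases. DESeq2 1.42.0, limma-voom (limma 3.58.1) and the settings of the closing section were alternatives. Members and lists were chosen with earlier results of these data known. All 30 members, ANXA1 and, of each list, members past the threshold or else its 2 most abundant were to be named. Figures were drawn with matplotlib 3.10.9. Values of some single genes are not reported here.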

Additional observations from a re-analysis of the deposited data

How the results depend on the processing

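0 members passed under any of the 18 alternative fits, with a smallest adjusted p of 0.131. Signs were not stable for every member: 60 of 520 values turned, and 14 members, SLC2A3, SLC16A3, PDK3 and BPGM among them, kept their sign throughout. The cause of these turns was not tested. With the principal component side as a covariate, the log2 fold changes that turned were SLC2A1 -0.079, HK1 -0.063, GPI -0.030, ALDOA 0.13, ALDOC 0.20, TPI1 -0.067, ENO2 0.22 and LDHA -0.043. With the TCONS_ rows kept, the log2 fold changes that turned were HK1 -0.018 and LDHA -0.025. With the most abundant transcript per gene, the log2 fold changes that turned were HK1 -0.046, GPI -0.45, PFKL 0.18, PKM -0.49, LDHA -0.26 and SLC16A1 -2.12. With no filter, the log2 fold changes that turned were HK1 -0.013 and LDHA -0.021. With the stricter filter, the log2 fold changes that turned were HK1 -0.023 and LDHA -0.029. With upper quartile scaling, the log2 fold changes that turned were HK1 -0.049, GPI -0.017, GAPDH -0.026, PKM -0.026 and LDHA -0.056. In limma-voom, the log2 fold change that turned was PKLR 0.088. With the replicate number as a block, the log2 fold change that turned was PKLR 0.039. In DESeq2, the log2 fold change that turned was LDHA -0.005. With RLE scaling, the log2 fold change that turned was LDHA -0.0005. With counts thinned to the smallest library, the log2 fold change that turned was LDHA -0.006. Leaving out each library in turn gave ranges across 0 for HK1 -0.059 to 0.093, GPI -0.11 to 0.14, PFKM -0.069 to 0.32, ALDOA -0.43 to 0.069, ALDOC -0.56 to 0.036, TPI1 -0.093 to 0.36, ENO2 -0.42 to 0.11, PKM -0.095 to 0.13, PKLR -0.28 to 0.47, LDHA -0.075 to 0.056 and PDK1 -0.065 to 0.25. ANXA1 passed the threshold, with log2 fold changes of -1.15 (DESeq2, adjusted p = 3.21e-07), -1.17 (TCONS rows kept, adjusted p = 0.0477), -1.15 (limma-voom, adjusted p = 0.0197), -1.14 (principal component side covariate, adjusted p = 0.0201), -1.17 (stricter filter, adjusted p = 0.0435), -1.14 (thinned to smallest library, adjusted p = 0.0469), and without siControl replicate 3 (adjusted p = 0.0487). It did not pass with the replicate number as a block (adjusted p = 0.335), with its most abundant transcript (-1.56, adjusted p = 0.156), without any single one of the other 5 libraries (adjusted p from 0.124 to 0.392), with no filter (0.0517), or with RLE, total count or upper quartile scaling (0.0559 to 0.0726). With each library left out it ranged from -1.16 to -1.11. Over all genes, 2 passed in the model of the report; 160 passed in DESeq2, 5 with the TCONS_ rows kept, 5 with the principal component side, 1 with the most abundant transcript, 0 with the replicate number as a block, and 0 to 7 with each library left out. 1 gene of mitochondrial pyruvate use (PCK2) and 1 of the amino acid response (VLDLR, at 0 counts in siANXA1) passed in DESeq2. As shares of counts without length, the SLC16A1 share of lactate transport was 1.06 percentage points higher in siANXA1 than in siControl, against 2.17 per length. Libraries share replicate numbers, and deviations of same-numbered libraries correlated at -0.11, 0.26 and 0.26 across genes, not all above 0.1. Replicates 2 and 3 of siANXA1 correlated best with their own number, and siANXA1 replicate 1 did not. These correlations cannot show whether same-numbered libraries were made together, which the labels do not state. The block was therefore kept as an alternative only. At a common coefficient of variation of 0.423 with 3 libraries a group, no member passed, which does not show that the groups are alike; the smallest difference that could have passed was not computed. PDK3, SLC16A3 and PGM1 are limited by their few counts. Single transcripts carry the uncertainty of the estimate, which no test here sees.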
